A study of Homo sapiens with 10 samples.

Results

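Fibroblasts infected with a RAS retrovirus and given an added wild type METTL3 were compared with growing control fibroblasts, gene by gene across the whole transcriptome. The 4 libraries were chosen by their column names, 2 of the wild type knock-in and 2 of the control, out of 10 libraries in the series. All were RNA-seq of IMR90 cells, a line of normal human fetal lung fibroblasts that divides for a limited number of passages. The wild type knock-in cells had received a retrovirus with RAS, then siRNA against METTL3 and a lentivirus encoding wild type METTL3. The control cells had received the vector control retrovirus and non-targeting siRNA. A further pair of libraries, the senescent control, had RAS and non-targeting siRNA, and is used here to show where the wild type knock-in stood apart from RAS cells with their own METTL3. Values are also given, beside a few genes, for a pair with RAS, METTL3 siRNA and a mutant METTL3 knock-in and a pair with RAS, METTL3 siRNA and no knock-in. siRNA was given at day 4 after the retrovirus and again a day later with the lentivirus, and RNA was taken 48 h after that. The titles call the siRNA treatment a knockout. The protocol text names METTL14 where the titles and column names name METTL3, and the counts below show which gene was added. For the control and the senescent control the labels mention no lentivirus, empty or not. Between the wild type knock-in and the control, RAS, the siRNA and the lentiviral METTL3 differ together and cannot be told apart. Between the wild type knock-in and the senescent control, the METTL3 siRNA and the lentivirus with its METTL3 differ together, and these cannot be told apart either. The labels do not say that replicates are separate cultures, so each p-value reflects the spread among these libraries, which could be technical.

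Oncogenic RAS drives normal fibroblasts into senescence, a lasting stop of the cell cycle in which the retinoblastoma and p53 pathways hold division genes down and the nuclear lamina loses lamin B1. Senescent cells also take up a secretory state, the senescence-associated secretory phenotype (SASP), in which NF-kB and C/EBP-beta turn on interleukins, chemokines, proteases and growth factors, with IL1A as an early membrane-bound signal. METTL3 is the catalytic subunit of the enzyme that writes N6-methyladenosine (m6A) on RNA, with METTL14 as its partner. Interferon-stimulated genes, a separate programme, are known to appear late in senescence when cytoplasmic nucleic acid is sensed.

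METTL3 reached 59767 and 60669.9 CPM (counts scaled to library size) in the wild type knock-in samples, against 73.6 and 83.1 CPM in the control samples. The mean was 769-fold higher, and METTL3 took 5.87% and 5.86% of all counts of the wild type knock-in libraries, so it was left out of every library total and of the gene counts given from here on. METTL14 stood at 31.04 and 32.5 CPM against 19.7 and 28.8 CPM, a log2 fold change of 0.39 (SE 0.14, adjusted p = 0.0317) that lost its call without wild type knock-in 1 (0.41), wild type knock-in 2 (0.34) or control 1 (0.13). HRAS rose to 49.9 and 45.3 CPM in the wild type knock-in, against 14.9 and 14.9 CPM in the control (log2 fold change 1.67, SE 0.11), and the senescent control had 63.9 and 64.1 CPM. The 2 wild type knock-in libraries held 16293975 and 21280315 counts and the 2 control libraries 23570266 and 22977220. The control pair was the least alike, with a mean chi-square per gene of 34.4 against 6.13 for the wild type knock-in pair and 3.61 to 5.24 for the other groups. Counts that rest on control 1 or control 2 alone are named where they occur.

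Of 16915 genes tested with edgeR's quasi-likelihood test, 5184 were higher (30.6%) and 4863 lower (28.7%) in the wild type knock-in than in the control at an adjusted p under 0.05. In bulk RNA, fewer cells of a type and less RNA per cell cannot be told apart. The median log2 fold change over all tested genes was 0.05. A change of at least 1 on the log2 scale was called for 2815 higher genes (16.6%) and 1550 lower genes (9.16%). Against the senescent control, 3394 genes were higher (20.1%) and 3326 lower (19.7%) in the wild type knock-in. Without senescent control 1 or 2 the higher genes came to 2243 and 2207, and without wild type knock-in 1 or senescent control 2 the lower genes came to 2099 and 2188. With so large a part of all genes called, the count for a gene list is read against these shares. The senescent control itself had 3637 genes higher (21.5%) and 3836 lower (22.7%) than the control. Both comparisons use the same 2 control libraries, so their values are set side by side here without a test of likeness, and differences between the 2 RAS groups rest on the direct test between them.

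**Figure D1:**
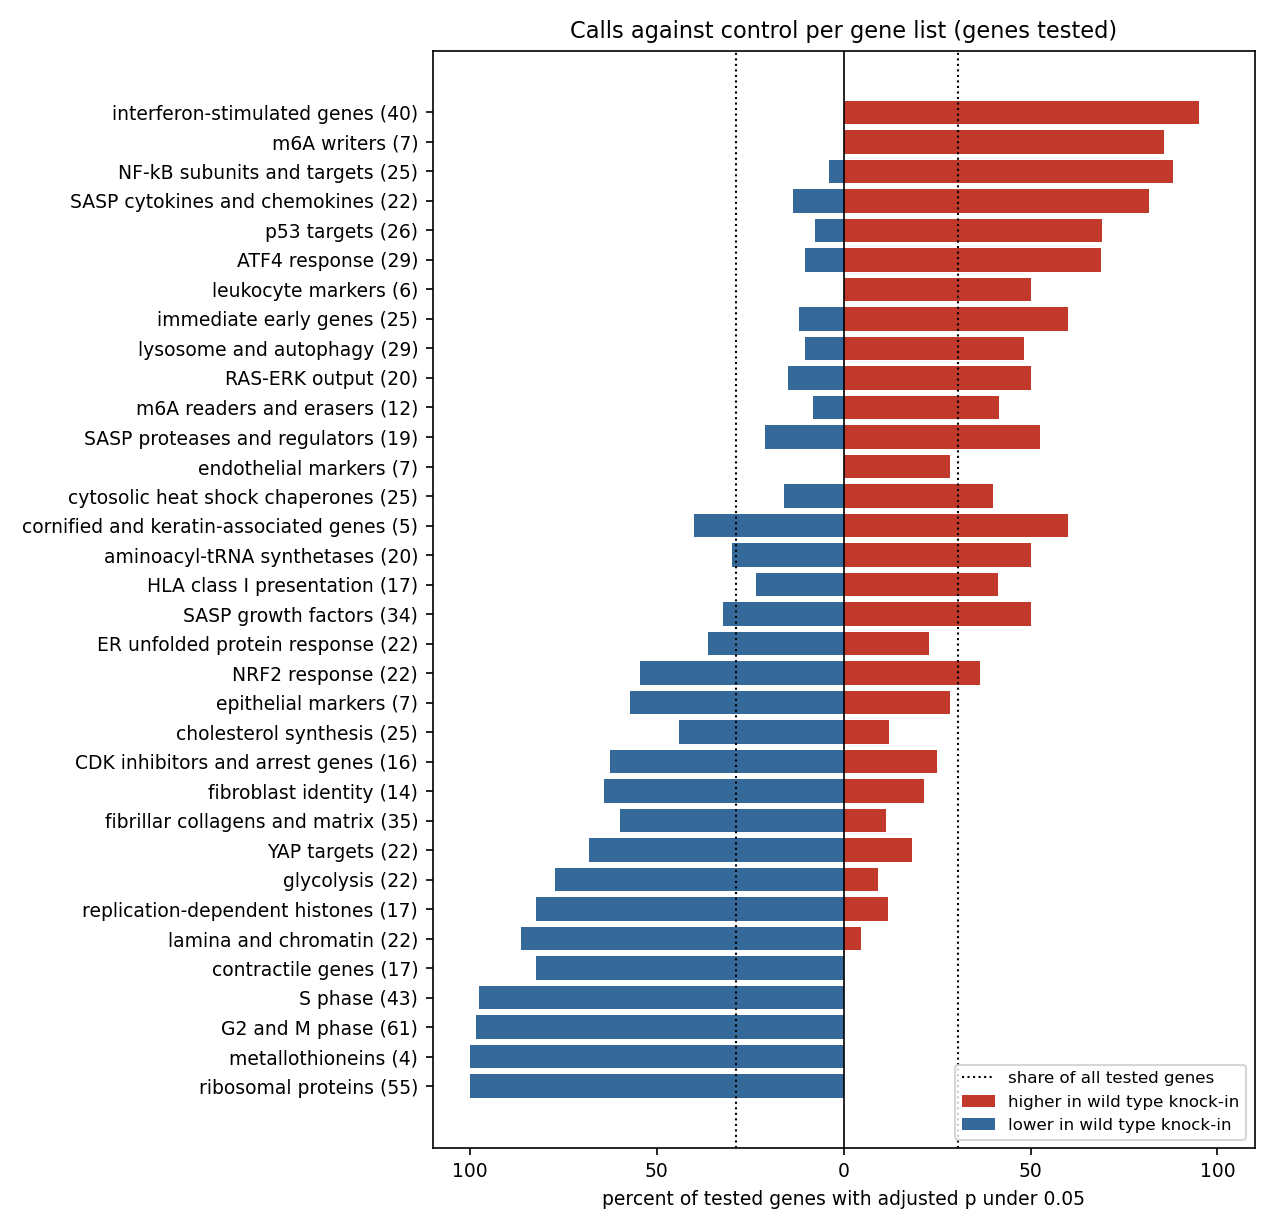
Share of tested genes in each list that passed an adjusted p of 0.05 (edgeR), drawn to the right where higher and to the left where lower in the wild type knock-in than in the control, with the number of genes tested in brackets and dotted lines at the shares over all genes, 30.6% higher and 28.7% lower. Interferon-stimulated genes stand at the top with 38 of 40 higher, and all 55 ribosomal protein genes tested stand at the bottom as lower.

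Cell division genes fell almost throughout. Of 61 genes for G2 and M phase, 60 fell and none rose, with a median log2 fold change of -3.26, and of 43 S phase genes 42 fell, with a median of -1.85, beside 28.7% of all genes lower. KIF20A, a kinesin of cytokinesis, fell to 2.19 and 2.48 CPM in the wild type knock-in, against 108 and 105 CPM in the control (log2 fold change -5.50, SE 0.14, adjusted p = 1.7e-10), the largest fall of any gene that met the naming rule. CDC20, which activates the anaphase-promoting complex, had 1.56 and 2.19 CPM in the wild type knock-in and 67.7 and 61.4 CPM in the control. No wild type knock-in sample overlapped a control sample for either gene, which the naming rule for the largest falls required. CCNB1, the mitotic cyclin, fell by 3.26 on the log2 scale, to 16.4 and 17.9 CPM against 169 and 161 CPM. The mitotic kinase CDK1 fell by 3.93 (SE 0.19), and PLK1, another mitotic kinase, by 4.32 (SE 0.18). The proliferation antigen MKI67 had 26.98 and 25.9 CPM against 213 and 352 CPM, with the control samples themselves far apart.

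Genes of nucleotide supply and DNA replication followed the same direction. RRM2, a subunit of ribonucleotide reductase, fell to 7.87 and 8.18 CPM in the wild type knock-in, against 209 and 193 CPM in the control (log2 fold change -4.64, SE 0.12). TK1, thymidine kinase, fell to 1.19 and 0.973 CPM against 36.3 and 32.5 CPM (-5.0, SE 0.18). The replication licensing factor CDT1 fell by 3.30 and the replication factor MCM10 by 3.28. The helicase subunit MCM2 fell by 1.91 and the sliding clamp PCNA by 1.11, so the size of the fall ranged widely within the list. Most entries of the histone list matched no gene ID. Among the 17 that did, 14 fell, with a median of -3.61, beside 28.7% of all genes lower. H1-5, a linker histone, had 2.87 and 2.48 CPM in the wild type knock-in and 115 and 108 CPM in the control (-5.38, SE 0.16). H1-3, another linker histone, fell by 5.04, and the core histone genes H3C12 and H2BC13 by 4.96 and 4.52. H3C13, a core histone gene outside the list, fell by 4.62. Among the 2 histone genes that rose was H2AC6, a core histone gene (0.53). Many histone genes are near-identical copies, so the split of counts among them is uncertain.

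In the G2 and M phase list the wild type knock-in also lay under the senescent control. Of the 61 genes, 32 were lower and 1 higher in that direct test, beside 19.7% of all genes lower, and all 32 were lower than the control and the senescent control, beside 13.3% of all genes. CDC20 was 1.87 lower on the log2 scale than in the senescent control (adjusted p = 2.87e-05), and RRM2 1.70 lower (adjusted p = 1.27e-06), both by edgeR. Of the 43 S phase genes 8 were lower and 5 higher than in the senescent control, beside 19.7% and 20.1% of all genes. Their median direct difference was -0.11, and the 8 were also lower than the control. MCM2, among the 5, had 9.74 and 8.86 CPM in the wild type knock-in against 6.32 and 5.49 CPM in the senescent control. Its direct difference was 0.66 (adjusted p = 0.00649 by edgeR). The transcription factor E2F1 fell to 3.93 and 3.65 CPM, against 19.1 and 16.4 CPM in the control, while the repressor E2F7 rose to 437 and 441 CPM, against 80.9 and 84.9 CPM. PIMREG, a mitotic regulator, and NEURL1B, a ubiquitin ligase of the Notch pathway, completed the 12 largest falls with the genes above and LMNB1, at -4.72 and -5.09.

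Among the cell cycle inhibitors the tested genes split. CDKN2B, which encodes the inhibitor p15, rose to 115 and 121 CPM in the wild type knock-in, against 10.3 and 12.4 CPM in the control (log2 fold change 3.38, SE 0.11, adjusted p = 7.56e-10 by edgeR). CDKN1A, which encodes p21, rose to 854 and 947 CPM against 554 and 497 CPM (0.78, SE 0.10). CDKN2A, the gene of p16 and ARF, stood at 40.04 and 45.5 CPM against 38.1 and 35.05 CPM (0.23, adjusted p = 0.0564 by edgeR). It passed the threshold when wild type knock-in 1 (0.31) or control 1 (0.28) was left out, under upper-quartile scaling (0.29) and with a minimum count of 50 (0.29). It was lower than in the senescent control, at 58.3 and 61.8 CPM (-0.49). CDKN2C, which encodes p18, fell to 1.75 and 1.41 CPM against 13.3 and 12.3 CPM (-3.03, SE 0.18). Over the 16 genes of the list 4 rose and 10 fell, beside 30.6% and 28.7% of all genes.

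Among 22 lamina and chromatin genes 19 fell and 1 rose, with a median of -1.11, beside 28.7% and 30.6% of all genes. LMNB1, the gene of lamin B1, fell to 2.37 and 2.38 CPM in the wild type knock-in, against 64.4 and 56.4 CPM in the control (-4.66, SE 0.16, adjusted p = 7.03e-10 by edgeR), and had 3.10 and 2.82 CPM in the senescent control. HMGB2, a DNA-bending protein, and TMPO, a lamina-associated protein, fell by 3.08 and 2.80. HMGA1, an architectural factor of senescence-associated heterochromatin, fell by 0.62. HMGA2, its relative, had 754 and 810.1 CPM against 810.0 and 1046 CPM and was not called (-0.25), although without control 1 it was (-0.43). The 1 gene that rose was SUZ12, a Polycomb subunit (0.57).

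Of 26 p53 targets 18 rose and 2 fell, with a median of 0.75, beside 30.6% of all genes higher. The falls came to 0 without wild type knock-in 1 and to 1 without wild type knock-in 2 or control 2. GDF15, a stress-induced cytokine, rose to 207 and 251 CPM in the wild type knock-in, against 15.6 and 11.4 CPM in the control (4.09, SE 0.15, adjusted p = 1.02e-09 by edgeR). SESN2, a stress-responsive inhibitor of mTORC1, rose to 127 and 132 CPM against 26.1 and 23.1 CPM (2.40). The damage-responsive GADD45A and the antiproliferative BTG2 rose by 1.93 and 1.95 on the log2 scale, and MDM2, the ubiquitin ligase of p53, by 0.92. All of these also passed the direct test above the senescent control, by 1.27 for GDF15, 1.86 for SESN2, 2.18 for GADD45A, 1.65 for BTG2 and 0.57 for MDM2. PURPL, a long noncoding RNA known as a p53-induced transcript, rose to 27.7 and 23.02 CPM against 0.222 and 0.457 CPM (6.20, SE 0.24).

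**Figure D2:**
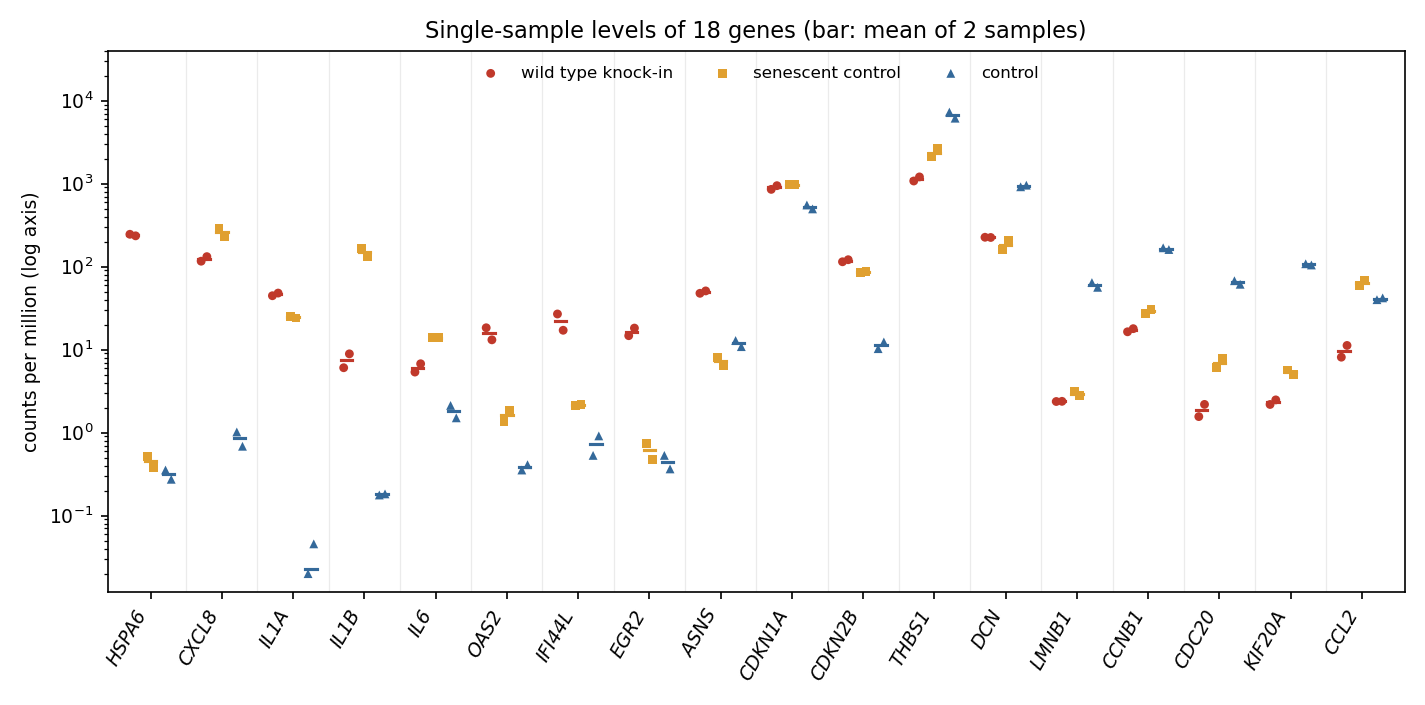
CPM of 18 genes in each sample on a log axis, for the wild type knock-in, the senescent control and the control, with a bar at the mean of 2 samples and a level of 0 drawn at 0.02. HSPA6 and EGR2 are high in the wild type knock-in and near the control level in the senescent control, IL1B is far lower there than in the senescent control, and the division genes towards the right are low in both RAS groups.

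SASP interleukins and chemokines rose in 18 of 22 tested genes and fell in 3, beside 30.6% and 28.7% of all genes. The median log2 fold change was 4.48, or 3.15 with the 4 genes at 0 counts in the control set to the bound that 3 counts give. CXCL8, the neutrophil attractant interleukin 8, rose to 116 and 132 CPM in the wild type knock-in, against 1.02 and 0.685 CPM in the control (7.17, SE 0.19, adjusted p = 1.7e-10 by edgeR). IL1A, the membrane-bound interleukin, had 715 and 988 counts (44.7 and 48.1 CPM) in the wild type knock-in, against 0 and 1 counts in the control. That is a ratio of 2.07e+03 with an exact 95% interval of 371 to 8.18e+04, which covers counting error only. Neither gene's samples overlapped between the groups, which the naming rule for the largest rises required of CXCL8. TNFSF15, a cytokine of the TNF family, rose to 29.5 and 31.2 CPM against 0.399 and 0.228 CPM (6.56, SE 0.19). CXCL1, a neutrophil attractant, had 62 and 118 counts against 1 and 0 in the control, a ratio of 219 (38.8 to 8.69e+03). CXCL11 and CCL20, attractants of lymphocytes, had no count in the control and were at least 25.5-fold and 24.3-fold higher. IFNE, an interferon otherwise known from the reproductive tract, rose to 9.31 and 6.47 CPM against 0.177 and 0.411 CPM (4.71).

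Most of these cytokines stood under the senescent control. In the direct test 14 of 22 were lower and 5 higher in the wild type knock-in, beside 19.7% and 20.1% of all genes, with a median of -1.01. IL1B, the secreted interleukin made as a precursor, had 6.06 and 8.91 CPM in the wild type knock-in, 165 and 133 CPM in the senescent control and 0.177 and 0.183 CPM in the control. It was 4.30 lower than in the senescent control on the log2 scale (adjusted p = 4.67e-08 by edgeR) and 5.34 higher than in the control (adjusted p = 4.17e-07 by edgeR). CSF3, a granulocyte growth factor, had 0.562 and 0.681 CPM against 10.5 and 9.40 CPM in the senescent control and no count in the control. IL6 had 5.37 and 6.77 CPM in the wild type knock-in, against 13.9 and 13.9 CPM in the senescent control and 2.13 and 1.51 CPM in the control. Among the 5 that were higher than in the senescent control were IL1A (0.92), CXCL11 (1.18) and CSF1 (1.34), the macrophage growth factor.

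The 3 cytokine genes that fell against the control were CCL2, CXCL12 and IL11. CCL2, the monocyte attractant, had 8.12 and 11.2 CPM in the wild type knock-in, 59.8 and 67.4 CPM in the senescent control and 40.03 and 42.1 CPM in the control. With a mutant knock-in CCL2 had 10.03 and 8.24 CPM and with METTL3 siRNA and no knock-in 11.1 and 13.7 CPM, so its level was low in all 3 groups given METTL3 siRNA. Its log2 fold change was -2.07 against the control (SE 0.16) and -2.70 against the senescent control. CXCL12, a homing signal for CXCR4+ cells, fell to 5.62 and 6.72 CPM against 77.97 and 70.6 CPM (-3.58), and IL11 fell by 1.13.

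SASP proteases and their regulators rose in 10 of 19 tested genes and fell in 4, beside 30.6% and 28.7% of all genes. MMP1, interstitial collagenase, rose to 655 and 757 CPM in the wild type knock-in, against 126 and 140.1 CPM in the control (2.41, SE 0.11). The senescent control had 3194 and 3231 CPM, which was higher than the wild type knock-in (direct log2 difference -2.19). MMP3, stromelysin, had 45.7 and 53.98 CPM in the wild type knock-in, 427 and 414 CPM in the senescent control and 8.87 and 7.81 CPM in the control. SERPINB2, an inhibitor of plasminogen activators, rose by 3.49 (SE 0.11), and PLAU, the urokinase, by 1.66 (SE 0.11). PLAT, the tissue plasminogen activator, had 141 and 161 CPM in the wild type knock-in, 654 and 658 CPM in the senescent control and 162 and 141 CPM in the control, and was not called against the control. In the direct test 11 of the 19 were lower and 3 higher than in the senescent control, beside 19.7% and 20.1% of all genes.

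Of 34 SASP growth factor genes 17 rose and 11 fell, beside 30.6% and 28.7% of all genes. The EGF family ligands EREG and AREG rose to 139 and 138 CPM against 21.9 and 27.5 CPM (2.48) and to 11.3 and 10.7 CPM against 0.621 and 0.868 CPM (3.87). STC1, stanniocalcin, rose by 2.72, BMP2, a bone morphogenetic protein, by 3.24, and ANGPTL4, a lipoprotein lipase inhibitor, by 2.94. IGFBP3, a binding protein of insulin-like growth factors, fell to 22.9 and 30.03 CPM against 198 and 171 CPM (-2.80, SE 0.18). Of the 34 genes 19 were lower and 7 higher than in the senescent control, beside 19.7% and 20.1% of all genes.

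NF-kB subunits and targets rose in 22 of 25 genes and fell in 1, beside 30.6% and 28.7% of all genes, with a median of 1.80. TNFAIP3, the deubiquitinase A20 that feeds back on NF-kB, rose to 166 and 177 CPM in the wild type knock-in, against 9.84 and 9.37 CPM in the control (4.16, SE 0.13, adjusted p = 3.85e-10 by edgeR). ICAM1, an adhesion molecule, rose to 159 and 171 CPM against 12.9 and 10.2 CPM (3.83), and NFKBIA, the inhibitor IkB-alpha, by 0.76. Groups did not overlap for these 3 genes. The subunit genes REL and RELB rose by 2.26 and 2.80, whereas RELA stood at 106 and 118 CPM against 111 and 89.4 CPM and was not called. TNFRSF9, the receptor 4-1BB, had 3.68 and 4.48 CPM in the wild type knock-in, against 0.0574 and 0.143 CPM in the senescent control and 0.222 and 0.0457 CPM in the control. TRAF1, a signalling adaptor, had 28.04 and 27.8 CPM, 3.04 and 2.82 CPM and 3.77 and 3.29 CPM in the same order. Of the 25 genes 13 were higher than in both the control and the senescent control, beside 13.9% of all genes, while the NF-kB targets PTGS2 and BCL2A1 were lower than in the senescent control (-1.0 and -1.39).

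Promoters of this group are shown because most of its members rose and kappa B sites are a textbook feature of them. RefSeq promoter entries were present for 22 of the genes, and 11 of these held the letters GGG, any 3 bases and TTCC on either strand in the 250 bases before a start site, against 6.87% of 27305 genes with an entry. For the SASP cytokines the count was 11 of 25. A match is a description of the letters in the window and not a site of binding. The stretches below are printed 5′ to 3′ on the gene's strand with matches in capitals (GRCh38.p14, chr4:73869289-73869349 on the plus strand for CXCL1 and chr6:137867167-137867238 on the plus strand for TNFAIP3). In CXCL1 a match on each strand overlaps the other, and the TNFAIP3 stretch holds a pair read on the opposite strand.
CXCL1: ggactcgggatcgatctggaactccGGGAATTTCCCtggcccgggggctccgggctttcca
TNFAIP3: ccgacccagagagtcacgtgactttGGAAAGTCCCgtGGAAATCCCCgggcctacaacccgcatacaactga

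Interferon-stimulated genes rose in 38 of 40 cases with none lower, beside 30.6% of all genes higher, and the median log2 fold change was 2.43. The 2 that did not pass were TRIM22 at 59.02 and 54.5 CPM against 54.6 and 58.9 CPM (0.00) and GBP1 at 42.6 and 40.9 CPM against 39.3 and 50.4 CPM (-0.10). Without control 1, 1 gene of the list was called lower. OAS2, which makes the signal that activates RNase L, rose to 18.4 and 13.1 CPM in the wild type knock-in, against 0.355 and 0.411 CPM in the control (5.33, SE 0.41, adjusted p = 1.89e-06 by edgeR). IFI44L rose to 26.9 and 17.1 CPM against 0.532 and 0.914 CPM (4.91, SE 0.33). RSAD2, the antiviral enzyme viperin, had 78 and 46 counts against 1 and 1, a ratio of 75.4 (exact 95% interval 20.4 to 629), and OAS1, a relative of OAS2, 34 and 46 against 2 and 1, a ratio of 32.4 (10.7 to 161). Wild type knock-in and control samples did not overlap for any of these, which the naming rule for the largest rises required of OAS2 and IFI44L. The anchor genes MX1, a dynamin-like GTPase, IFIT1, which binds foreign RNA caps, and ISG15, a ubiquitin-like modifier, rose by 3.56 (SE 0.33), 2.85 (SE 0.23) and 1.26 (SE 0.21).

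Against the senescent control 38 of the 40 genes were higher and none lower, beside 20.1% of all genes higher. Those higher than both the control and the senescent control numbered 36, beside 13.9% of all genes. The median of the direct difference was 1.97. The senescent control had 14 of the 40 higher and 8 lower than the control, beside 21.5% and 22.7% of all genes. MX1 had 20.7 and 15.3 CPM in the wild type knock-in, 2.58 and 3.44 CPM in the senescent control and 1.77 and 1.23 CPM in the control. The sensor gene IFIH1, which encodes MDA5, had 21.9 and 19.03 CPM, 2.41 and 2.34 CPM and 1.33 and 2.33 CPM in that order. IFI35 had 6.31 and 5.74 CPM in the wild type knock-in, 0.976 and 1.48 CPM in the senescent control and 2.84 and 2.51 CPM in the control, so the RAS groups lay on opposite sides of the control. The summed level of the 40 genes was 1999.7 and 1758 CPM in the wild type knock-in, 833 and 895 CPM in the senescent control and 785 and 855 CPM in the control. Wild type knock-in 1 was above wild type knock-in 2 in this sum, and also in OAS2 and IFI44L. In the remaining RAS groups MX1 had 105 and 87.9 CPM with a mutant METTL3 knock-in and 5.54 and 10.7 CPM with METTL3 siRNA and no knock-in. Among transcription factors of the pathway, IRF9 rose by 1.39, IRF7 by 1.91 and STAT2 by 0.31. Which of RAS, siRNA and lentivirus went with the rise cannot be told apart in this comparison.

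**Figure D3:**
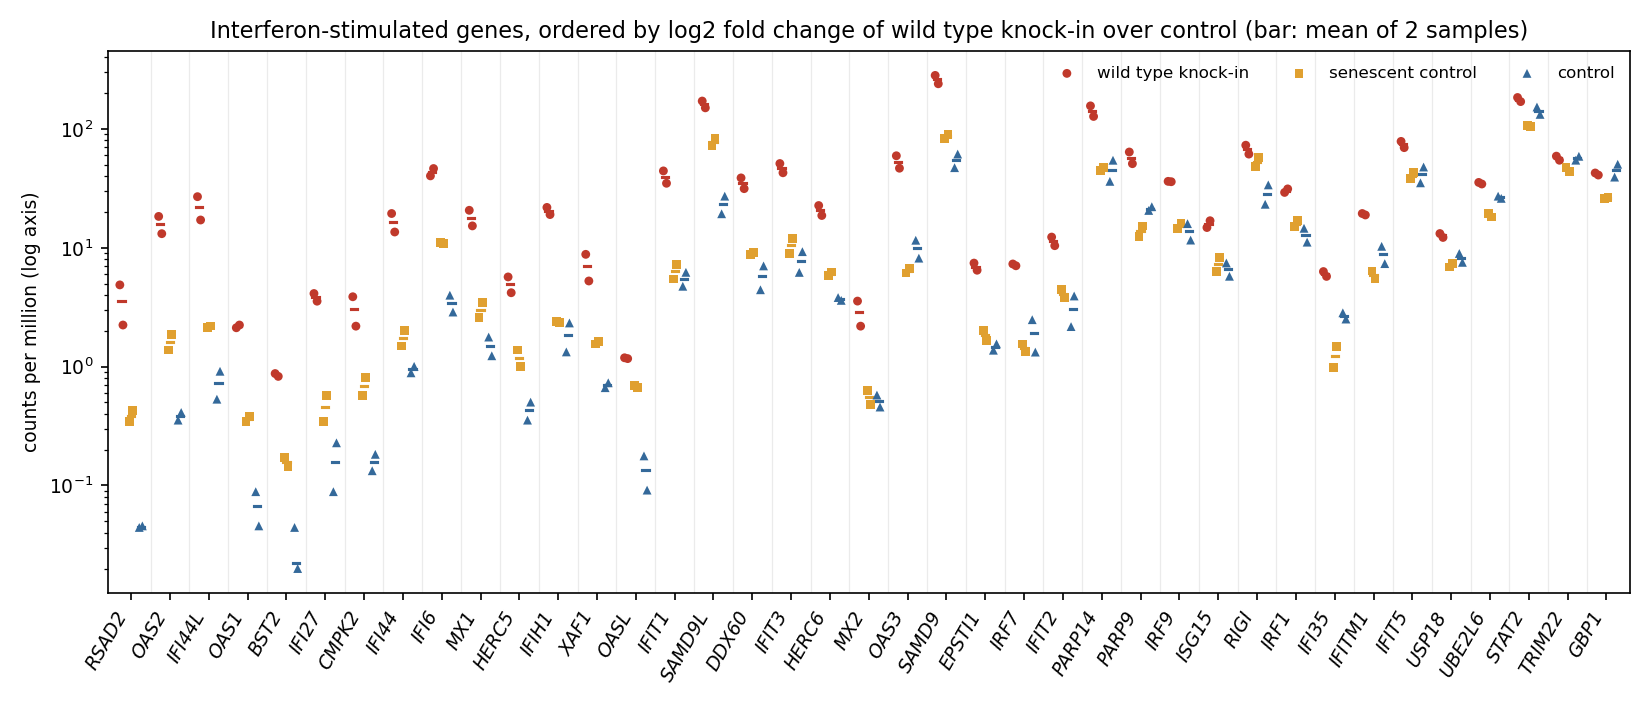
CPM per sample on a log axis for 39 interferon-stimulated genes, ordered by log2 fold change over the control, for the wild type knock-in, the senescent control and the control, with a bar at the mean of 2 samples and a level of 0 drawn at 0.02. The wild type knock-in samples lie above both other groups for nearly the whole list, except for genes at the right end such as TRIM22 and GBP1.

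The interferon-stimulated response element, searched as GAAA, any 2 bases and GAAA, occurred on either strand within 250 bases before a start site in 21 of 32 members with a RefSeq promoter entry, against 3.71% of 27305 genes. The stretches of 3 members show how close the matches lie to each other. IFI44L holds a pair of copies within a repeated stretch (chr1:78620259-78620409, plus strand, GRCh38.p14), in ISG15 a pair overlaps (chr1:1013359-1013424, plus strand), and in IFIT1 a pair is read on the opposite strand (chr10:89392482-89392554, plus strand). Capitals mark the element.
IFI44L: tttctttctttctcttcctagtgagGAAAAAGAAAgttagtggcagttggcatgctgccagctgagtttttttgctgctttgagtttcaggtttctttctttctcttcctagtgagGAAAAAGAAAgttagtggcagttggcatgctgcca
ISG15: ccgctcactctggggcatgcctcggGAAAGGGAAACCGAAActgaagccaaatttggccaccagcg
IFIT1: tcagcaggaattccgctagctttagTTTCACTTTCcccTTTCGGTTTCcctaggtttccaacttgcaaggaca

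In the antigen presentation list 7 of 17 genes rose and 4 fell, or 2 with DESeq2. Of all genes 30.6% rose and 28.7% fell, so the list as a whole did not stand out. HLA-B and HLA-C, classical class I chains, rose by 1.53 and 0.81, and B2M, their shared light chain, by 0.70. The peptide transporter TAP1 rose by 1.07 and the class I transactivator NLRC5 by 1.08. The immunoproteasome gene PSMB9 was lower at 0.562 and 0.779 CPM against 1.68 and 1.28 CPM (-1.12), a call that was lost without wild type knock-in 1 (-0.93) or control 1 (-0.92) and with DESeq2 (-1.14), and CALR, an endoplasmic reticulum chaperone, fell by 0.90. HLA class I genes are close copies, so counts may be split among them.

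Apart from METTL3, and among genes with 10 or more counts in the control, the largest rise was in a heat shock gene. HSPA6, a strictly inducible cytosolic HSP70, reached 246 and 235 CPM in the wild type knock-in, against 0.355 and 0.274 CPM in the control (log2 fold change 9.55, SE 0.20, adjusted p = 5.42e-11 by edgeR), and the senescent control had 0.517 and 0.382 CPM. HSPA1A, the main inducible HSP70, rose to 1204 and 1211 CPM against 87.9 and 74.1 CPM (3.90, SE 0.11), and its near-identical neighbour HSPA1B to 469.9 and 446 CPM against 48.98 and 40.9 CPM (3.35), with the split between this pair uncertain. None of the 3 overlapped between groups, which the naming rule for rises and for genes above both groups had required of HSPA6 and HSPA1A. HSPA6 had 534 and 677 CPM with a mutant METTL3 knock-in and 0.731 and 0.599 CPM with METTL3 siRNA and no knock-in, so both knock-in groups were far above the 3 groups without one. HSPA4L and HSPH1, members of the HSP110 family, rose by 2.52 and 1.19, and the co-chaperone DNAJB1 by 1.05. The rise did not take in the whole list. Of 25 cytosolic chaperone genes 10 rose, 4 fell and 11 did not pass, with a median of 0.09, beside 30.6% and 28.7% of all genes. HSP90AB1 had 1132 and 1211 CPM against 1277 and 1164 CPM (-0.06) and HSPA8, the constitutive HSP70, 2485 and 2719 CPM against 3007 and 2878 CPM (-0.18). Against the senescent control 11 of the 25 were higher and 1 lower, beside 20.1% and 19.7% of all genes.

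The heat shock element, searched as GAA, any 2 bases, TTC, any 2 bases and GAA, was found on either strand in 6 of 22 chaperone genes with a promoter entry, against 0.557% of all genes with one. HSPA6 is shown as the chaperone gene with the largest rise (chr1:161524441-161524503, plus strand, GRCh38.p14), with the match in capitals, read on the opposite strand. The windows of HSPA1A and HSPA1B hold no match to these letters.
HSPA6: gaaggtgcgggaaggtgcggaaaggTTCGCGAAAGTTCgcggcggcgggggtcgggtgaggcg

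Among 25 immediate early genes 15 rose and 3 fell, beside 30.6% and 28.7% of all genes, with a median of 0.58. EGR2, a zinc finger factor, rose to 14.7 and 18.2 CPM in the wild type knock-in, against 0.746 and 0.477 CPM in the senescent control and 0.532 and 0.366 CPM in the control (5.18 against the control, SE 0.29). ATF3, a stress-induced bZIP factor, rose to 56.4 and 68.8 CPM against 2.70 and 2.47 CPM (4.60, SE 0.18), and EGR1 to 357 and 377 CPM against 63.2 and 46.7 CPM (2.74). FOS, an AP-1 subunit, rose by 3.90 against the control and stood at 11.99 and 15.7 CPM in the wild type knock-in beside 11.1 and 11.03 CPM in the senescent control, a difference that was not called. EGR4 had 13 and 15 counts in the wild type knock-in and none in the control, at least 11.3-fold higher. MYC and the phosphatase gene DUSP1 fell by 0.40 and 0.64, so the list did not move as one.

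Targets of ATF4, the factor of amino acid shortage and the integrated stress response, rose in 20 of 29 cases while 3 fell. Their median was 0.75, and of all genes 30.6% rose and 28.7% fell. ASNS, asparagine synthetase, rose to 47.8 and 51.1 CPM in the wild type knock-in, against 12.9 and 10.9 CPM in the control (2.06, SE 0.13, adjusted p = 7.5e-08 by edgeR). TRIB3, a pseudokinase, rose to 59.3 and 65.1 CPM against 9.66 and 8.41 CPM (2.78). DDIT3, the factor CHOP, rose by 2.47, PSAT1 of serine synthesis by 1.46 and CTH of cysteine synthesis by 2.29. In the direct test 23 of the 29 were higher than in the senescent control and none lower, beside 20.1% of all genes higher, with a median of 0.77. The senescent control had 7 of the 29 higher and 11 lower than the control, beside 21.5% and 22.7% of all genes. ASNS had 8.10 and 6.35 CPM in the senescent control, and 58.9 and 66.95 CPM with a mutant knock-in. NUPR1, a stress-induced nuclear protein, had 17.9 and 19.5 CPM in the wild type knock-in, 2.87 and 3.29 CPM in the senescent control and 11.7 and 10.6 CPM in the control. PHGDH, the first enzyme of serine synthesis, was one of the 3 that fell, at 11.4 and 8.32 CPM against 14.4 and 14.03 CPM.

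The C/EBP-ATF response element TGATGNAA occurred in 3 of 23 members with a promoter entry, ASNS among them, against 3.89% of all genes with one. The ASNS stretch (chr7:97872444-97872501, minus strand, GRCh38.p14) is printed on the gene's strand.
ASNS: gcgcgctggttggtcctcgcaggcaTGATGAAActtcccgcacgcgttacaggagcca

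**Figure D4:**
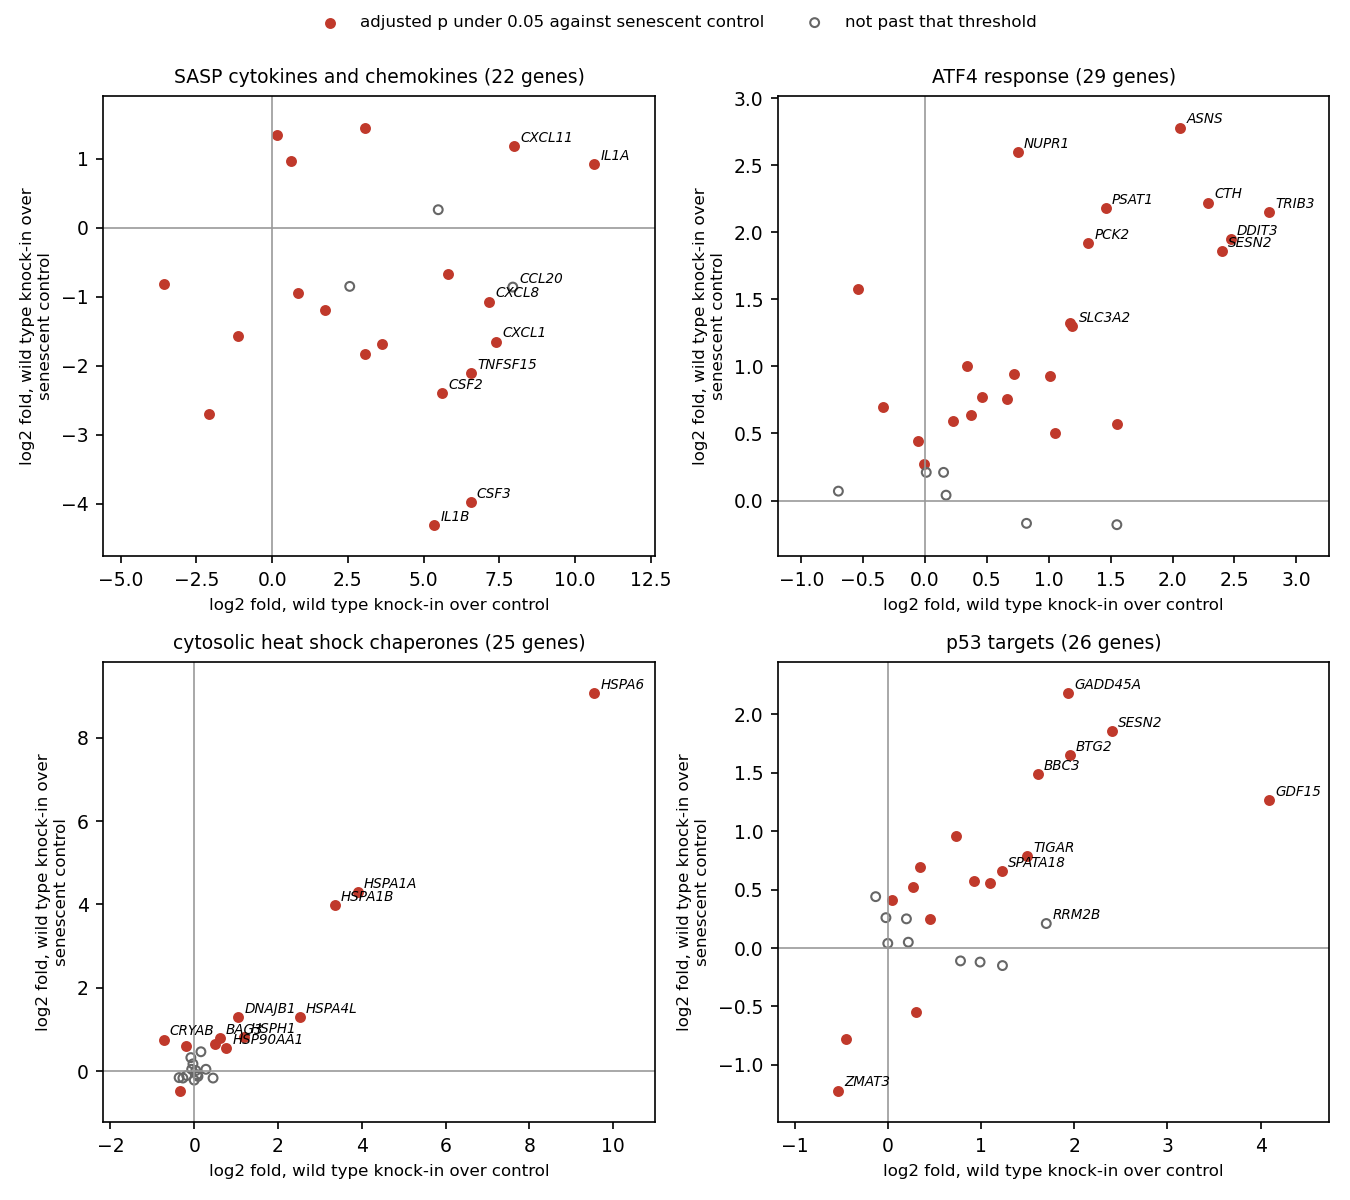
Log2 fold change of the wild type knock-in over the control on the horizontal axis and over the senescent control on the vertical axis, 1 point per gene, for 4 gene lists, with filled points where the adjusted p against the senescent control was under 0.05. SASP cytokines lie mostly right of 0 and under it, ATF4 targets mostly above 0, and HSPA6, HSPA1A and HSPA1B stand far from the other chaperones, while fitted values of cytokines near 0 counts in the control depend on the prior count.

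Other stress lists split, and their counts are to be read beside 30.6% higher and 28.7% lower of all genes. Among 20 aminoacyl-tRNA synthetases 10 rose and 6 fell, with AARS1, for alanine, at 199 and 205 CPM against 109.7 and 92.2 CPM (1.0) and QARS1, for glutamine, at 64.1 and 70.1 CPM against 147 and 130.0 CPM (-1.05). In the endoplasmic reticulum list 5 of 22 rose and 8 fell, and the rises came to 3 without wild type knock-in 1 and 2 without wild type knock-in 2. The chaperone HSPA5 stood at 731 and 764 CPM against 742 and 724 CPM (0.03, not called), whereas ERN1, the sensor IRE1, rose to 92.7 and 83.7 CPM against 13.4 and 13.2 CPM (2.73, SE 0.12). Of 22 NRF2 response genes 8 rose and 12 fell, with 4 rises when no filter on low counts was used. HMOX1, heme oxygenase, rose to 171 and 211 CPM against 41.8 and 35.9 CPM (2.30, SE 0.12), with 19.5 and 19.95 CPM in the senescent control. NQO1, a quinone reductase, fell to 88.8 and 93.9 CPM against 248 and 223 CPM (-1.36). All 4 metallothionein genes tested, which bind zinc and copper, were lower. MT2A had 278 and 333 CPM in the wild type knock-in, 1084 and 992 CPM in the senescent control and 513 and 448 CPM in the control. Each of the 4 was higher in the senescent control than in the control, beside 21.5% of all genes. MT1X lost its call without wild type knock-in 1 (-0.40).

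Of 22 glycolysis genes 17 fell and 2 rose, beside 28.7% and 30.6% of all genes, with a median of -0.83. LDHA, lactate dehydrogenase, fell to 260.4 and 299 CPM in the wild type knock-in, against 891 and 851 CPM in the control (-1.64, SE 0.10, adjusted p = 4.42e-08 by edgeR), and was also lower than in the senescent control at 741 and 736 CPM (-1.40). PFKP, a phosphofructokinase, fell by 1.40, GAPDH by 1.24 and ALDOA, an aldolase, by 1.02. The 2 that rose were HK2, a hexokinase, at 94.2 and 99.4 CPM against 64.8 and 54.01 CPM (0.71), and the glucose transporter gene SLC2A3 (0.78). In the direct test 18 of 22 were lower and none higher than in the senescent control, beside 19.7% and 20.1% of all genes. All 55 ribosomal protein genes tested fell, with a median of -0.69, beside 28.7% of all genes. Of these, 34 were also lower than in the senescent control, beside 13.3% of all genes lower than both. RPL7A had 176 and 204 CPM against 496 and 450.1 CPM (-1.32), and RPLP0 237 and 252 CPM against 462 and 412 CPM (-0.84). The summed CPM of the 55 genes was 7258 and 7973 in the wild type knock-in, 9475 and 9221 in the senescent control and 13337 and 12504 in the control. Among 25 cholesterol synthesis genes 3 rose and 11 fell, among them ACAT2, a thiolase (-1.05), while SC5D, a sterol desaturase, rose (0.98).

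Matrix and contractile genes were mostly lower. Of 35 matrix genes 21 fell and 4 rose, beside 28.7% and 30.6% of all genes, with a median of -0.54. THBS1, thrombospondin, fell to 1078 and 1207 CPM in the wild type knock-in, against 7294 and 6156 CPM in the control (-2.56, SE 0.13). DCN, the proteoglycan decorin, fell to 226 and 225 CPM against 918 and 959.7 CPM (-2.06, SE 0.11). COL1A1, a chain of type I collagen, had 1249.8 and 1331 CPM against 4297 and 2788 CPM (-1.46), with the control samples unlike each other. FN1, fibronectin, had 8223 and 8647 CPM against 10911 and 8209 CPM and overlapped between the groups (-0.18, not called, and -0.38 when called without control 2). POSTN, periostin, rose to 98.4 and 109.9 CPM against 15.6 and 21.2 CPM (2.50, SE 0.13), and LUM, lumican, by 1.53. Contractile genes fell in 14 of 17 cases with none higher (1 higher without control 2), including ACTA2, smooth muscle actin, at 147 and 161 CPM against 371 and 337 CPM (-1.2) and TAGLN, transgelin, by 1.40. Of 22 YAP targets 15 fell and 4 rose. CCN1 and CCN2, secreted matricellular targets, fell by 1.16 and 0.65, and the gene of the coactivator itself, YAP1, by 1.04, at 221 and 237 CPM in the wild type knock-in, 473 and 474 CPM in the senescent control and 449.6 and 492 CPM in the control.

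Fibroblast markers were abundant in both groups, with VIM, vimentin, at 4157 and 4674 CPM in the wild type knock-in and 8648 and 7653 CPM in the control (-0.88), and 9 of the 14 fell while 3 rose. The summed level of that list was 8438 and 9103 CPM in the wild type knock-in, against 18482 and 15343 CPM in the control. Markers of other cell types were checked for their share. Among 16 leukocyte markers CD3E, CD8A and NKG7 had no count in any of the 4 libraries, PTPRC had 24 and 20 counts in the wild type knock-in and none in the control (at least 17.8-fold higher), and CD68, a lysosomal glycoprotein found in macrophages and fibroblasts, rose to 155 and 167 CPM against 73.98 and 66.9 CPM. Their summed level was 184 and 195 CPM against 98.8 and 87.8 CPM, most of it CD68. Of 6 leukocyte markers tested 3 rose and none fell, beside 30.6% and 28.7% of all genes. The epithelial keratin genes KRT5 and KRT14 and the surfactant gene SFTPC had no count, and the list summed to 42.6 and 43.6 CPM against 84.6 and 76.9 CPM. Of 7 epithelial markers tested 2 rose and 4 fell. CDH1 had 17 counts over the wild type knock-in libraries and 3 over the control libraries, a ratio of 6.89 (1.99 to 36.7). Endothelial CDH5, CLDN5 and PLVAP had no count, and that list summed to 31.0 and 31.8 CPM against 24.6 and 27.3 CPM. Of 7 endothelial markers tested 2 rose and none fell. IVL and LCE1F, genes of cornified epithelium, had levels of 0.312 and 0.389 CPM and 1.31 and 1.36 CPM in the wild type knock-in and of 3.73 and 3.72 CPM and 20.6 and 19.7 CPM in the senescent control. Over both control libraries IVL had no count, at least 5.27-fold higher in the wild type knock-in, and LCE1F had 1 count, a ratio of 59.6 (10.2 to 2.4e+03). By contrast the keratin-associated genes KRTAP1-5 and KRTAP2-3, which belong to a family of close copies, fell by 3.36 and 2.13. The part of any of these cells in the results was not tested.

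Of 20 genes in the RAS-ERK output list 10 rose and 3 fell against the control, beside 30.6% and 28.7% of all genes. The list includes HRAS itself, which was called higher in the wild type knock-in and in the senescent control, both given the RAS retrovirus. The median of the 20 was 0.39. In the direct test 9 of them, HRAS included, were lower and 1 higher than in the senescent control, beside 19.7% and 20.1% of all genes. The senescent control had 13 higher than the control, beside 21.5% of all genes, with a median of 0.71. The falls came to 1 without wild type knock-in 1 or control 1. DUSP6, a phosphatase of ERK, had 181 and 204 CPM in the wild type knock-in, 315 and 309 CPM in the senescent control and 82.5 and 78.4 CPM in the control (1.26 against the control and -0.70 against the senescent control). SPRY4, a feedback inhibitor, rose by 0.92, and MAFF, a small Maf factor, to 51.3 and 55.2 CPM against 15.2 and 14.4 CPM (1.84). EPHA4, an ephrin receptor, fell by 1.2.

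Of 7 m6A writer genes beside METTL3, 6 were higher with a median of 0.39, and that count was 3 without either wild type knock-in sample. Of all genes 30.6% were higher and 28.7% lower. WTAP, the targeting subunit, had 139 and 143 CPM against 95.9 and 109.5 CPM (0.46, SE 0.10). RBM15, an RNA-binding subunit, had 49.8 and 50.3 CPM against 34.97 and 39.2 CPM (0.43). YTHDC1, the nuclear m6A reader, rose to 146 and 135 CPM against 57.98 and 71.6 CPM (1.11, SE 0.11), with 66.7 and 64.1 CPM in the senescent control. YTHDC2, a reader with helicase activity, rose by 1.01 (SE 0.20) and YTHDF3, a cytoplasmic reader, by 0.67, a call lost without wild type knock-in 2 (0.64) and in a fit of these 4 samples alone (0.68). The YTHDF3 difference was 0.32 without control 1 and 1.09 without control 2, and that of YTHDC2, called in both, was 0.63 and 1.48. The demethylase FTO was lower at 87.8 and 90.8 CPM against 111 and 104 CPM (-0.26), a call lost without wild type knock-in 1 (-0.25) and under upper-quartile scaling (-0.20), and ALKBH5, the other demethylase, was not called (-0.12). Among readers and erasers 5 of 12 rose, or 3 without wild type knock-in 2. Among 29 lysosome and autophagy genes 14 rose and 3 fell (1 without either wild type knock-in sample and 6 without control 2), with the autophagy receptor SQSTM1 at 1117 and 1177 CPM against 684 and 604 CPM (0.83) and CTSK, cathepsin K, up by 1.21. GLB1, the gene of the beta-galactosidase used as a senescence stain, had 73.6 and 85.1 CPM against 96.9 and 84.2 CPM and was not called (-0.19), although without control 2 it was (-0.30).

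**Figure D5:**
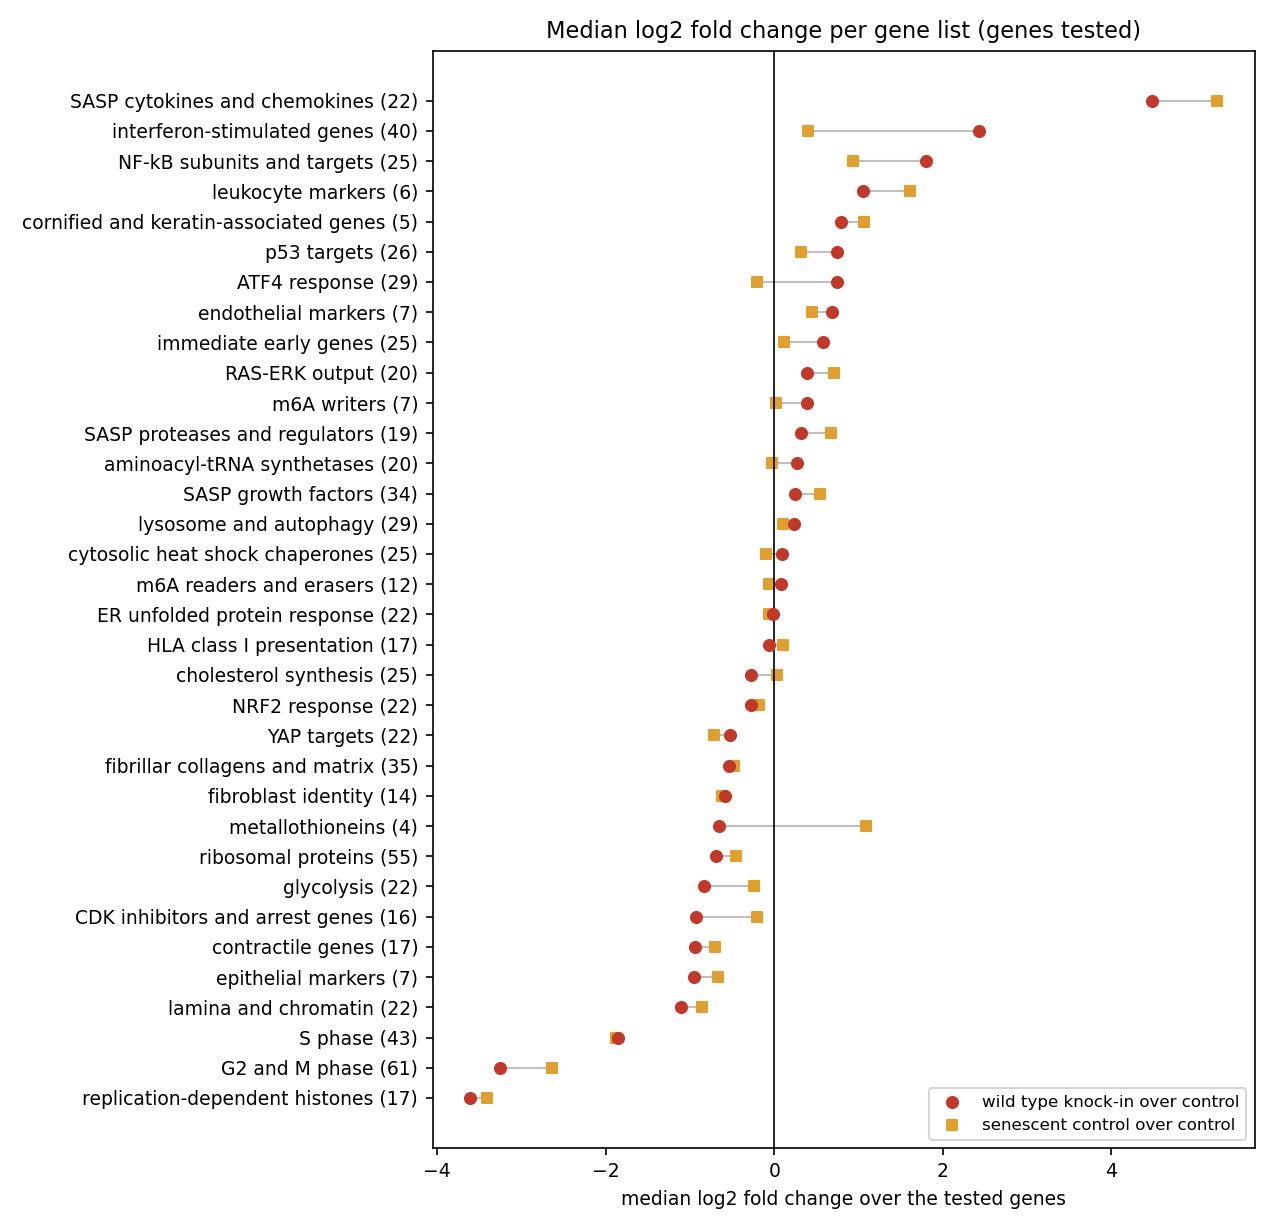
Median log2 fold change over the tested genes of each list for the wild type knock-in over the control and for the senescent control over the control, with the number of genes tested in brackets; both share the 2 control libraries. The markers lie farthest apart for interferon-stimulated genes (2.43 and 0.40) and metallothioneins (-0.66 and 1.09), and close together for S phase genes (-1.85 and -1.88).

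Set against both other groups, 2345 genes were higher in the wild type knock-in than in the control and in the senescent control (13.9%), and 2258 were lower than both (13.3%), or 1335 without wild type knock-in 1. Beside HSPA6, HSPA1A, EGR2 and PURPL, the genes highest above both included MYCT1, SUGCT-AS1 and IL20RB. MYCT1, a membrane protein gene known from endothelium, had 32.2 and 31.4 CPM in the wild type knock-in, 1.21 and 1.15 CPM in the senescent control and 0.266 and 0.228 CPM in the control (6.97 against the control, SE 0.23). IL20RB, a subunit of receptors for the IL-20 cytokines, had 11.6 and 9.73 CPM, 0.402 and 0.525 CPM and 0.355 and 0.548 CPM in the same order. The antisense transcript SUGCT-AS1 had 33.9 and 32.5 CPM against 0.310 and 0.228 CPM in the control, and since use of strand in counting is not stated its reads cannot be told from those of its partner gene. TTN, the giant sarcomere protein titin, rose to 52.7 and 43.3 CPM against 0.754 and 1.01 CPM (5.76). With a mutant knock-in MYCT1 had 55.8 and 69.5 CPM, SUGCT-AS1 49.3 and 59.2 CPM and IL20RB 13.4 and 18.8 CPM. TTN had 109 and 141 CPM there, EGR2 16.3 and 21.1 CPM and PURPL 29.6 and 29.5 CPM. These genes were thus high in both knock-in groups. FAM3C2P, a pseudogene whose reads may come from its parent gene, was also among the 12 largest rises, at 14.3 and 12.5 CPM against 0.709 and 0 CPM.

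Named as lowest under both groups, beside CDC20, CCL2 and the keratin-associated genes, were PEG10, SYT11, GMNC and the readthrough transcript SLX1A-SULT1A3. PEG10, an imprinted gene derived from a retrotransposon, had 32.7 and 31.2 CPM in the wild type knock-in, 228 and 231 CPM in the senescent control and 193 and 174 CPM in the control (-2.52 against the control, SE 0.10). SYT11, a vesicle protein, had 23.2 and 22.6 CPM, 105 and 103 CPM and 94.7 and 85.5 CPM in that order, and GMNC, a geminin-like factor of ciliated cells, 2.998 and 4.92 CPM, 18.1 and 21.5 CPM and 11.9 and 19.2 CPM. The wild type knock-in samples were below the senescent control and control samples for each of the 3, and with a mutant knock-in PEG10 had 36.1 and 40.8 CPM, SYT11 25.9 and 20.7 CPM and GMNC 3.70 and 3.46 CPM. SLX1A-SULT1A3 shares sequence with its copies, had senescent control samples of 2.01 and 13.3 CPM, and lost its call when any 1 of the 4 libraries was left out (-2.96 to -2.72).

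Some genes lay on opposite sides of the control in the RAS groups. A rise in the wild type knock-in with a fall in the senescent control was called for 176 genes (1.04%), and a fall with a rise for 157 (0.928%). The first count was 92 and 87 without senescent control 1 or 2. The second was 99 without wild type knock-in 1, 253 and 250 without control 1 or 2, and 76 and 64 without senescent control 1 or 2. Every gene of the full counts also passed the direct test between the RAS groups. Opposite calls against the same control libraries make that all but certain, so it adds no support. LONRF2, a ubiquitin ligase, had 6.31 and 4.33 CPM in the wild type knock-in, 0.172 and 0.239 CPM in the senescent control and 0.798 and 0.823 CPM in the control. BACH2, a transcriptional repressor of lymphocytes, had 6.12 and 4.96 CPM, 0.574 and 0.573 CPM and 1.51 and 1.19 CPM in that order. TRPA1, an ion channel for irritants, had 40.1 and 49.5 CPM in the wild type knock-in, 363 and 365 CPM in the senescent control and 94.7 and 127 CPM in the control. It had 39.4 and 32.7 CPM with a mutant knock-in and 57.7 and 55.7 CPM with METTL3 siRNA and no knock-in, so its level was low in those groups too. KATNAL1, a microtubule-severing subunit, had 64.3 and 63.7 CPM, 219 and 219 CPM and 86.97 and 147 CPM, with the control samples apart.

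A count of 0 in both control libraries allows a level of up to 0.0675 CPM, and 225 genes at 0 there had 10 or more counts in the wild type knock-in, while 25 showed the reverse. OLAH, a thioesterase of fatty acid synthesis, had 107 and 126 counts in the wild type knock-in and was at least 94.4-fold higher. SLAMF7, a receptor of lymphoid cells, had 51 and 59 counts and LCP1, the leukocyte actin bundler L-plastin, 46 and 62, at least 44.6-fold and 43.8-fold higher. HIF1A-AS3, an antisense transcript that strand-blind counting cannot separate from its neighbours, had 58 and 72 counts, and the readthrough transcript BORCS7-ASMT 59 and 41 without passing the test.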

How the data were processed

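RNA-seq of IMR90 cells was deposited as 1 table of counts for 57736 gene IDs in 10 samples, as whole-number counts not normalized by the authors. Per the submitters' processing notes, Bowtie2 and RSEM 1.2.12 were used with hg19, and per the labels' protocols the RNA was column-purified and DNase-treated before KAPA HyperPrep library preparation. The sources used here do not state whether counting used strand.

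Columns were matched to samples by their names. METTL3 was left out of library totals because its lentiviral copy took a share of counts. Genes were kept by filterByExpr (minimum count 10) over all 10 samples, scaled by TMM and tested with edgeR 4.0.16 in R 4.3.3 by the quasi-likelihood test, with 1 coefficient per group, robust dispersion and Benjamini-Hochberg adjustment, at an adjusted p under 0.05. Residual degrees of freedom were 5 and the median biological coefficient of variation was 9.27%. Standard errors are the log2 fold change over the root of F. CPM uses the same totals. Intervals and floors (3 counts over the 2 libraries, exact 95%) cover counting error only. In simulated data with 100 genes changed at each fold size, 73% of 2-fold and 87% of 4-fold changes were recovered. False calls numbered 13 of 16222 genes. In the real libraries 59.4% of tested genes were called, and recovery with that many genes changed was not tested.

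Symbols were found for 51405 of the IDs, and 30 list entries matched none, most of them histone genes. The 34 gene lists (812 genes) and the comparison were chosen with earlier results of these data known. Named genes are the 12 largest rises and falls against the control (mean of 5 CPM or more in the higher group, 10 counts or more in the lower group, no overlap of groups), the 8 highest and 8 lowest past both controls, the 5 called in opposite directions each way, the 5 highest at 0 in the control, and in each list the first 3 members and up to 4 called members with the largest change. Other list members named, such as FTO, HMOX1, YAP1 and the members that make up small counts, were chosen after their values were seen. Some genes that the rule names are not reported here.

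Alternatives were RLE and upper-quartile scaling, no filter, a minimum count of 50, only the 4 samples of the comparison, METTL3 kept in totals, non-robust dispersion, a replicate block, DESeq2 1.42.0 and leaving out each replicate. Replicate numbers came from the labels and were not used to pair the samples in the main fit. Promoter sequence is from RefSeq (GRCh38.p14), which differs from the build of the counts, so no coordinates of counted genes are given.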

Additional observations from a re-analysis of the deposited data

Results flagged for a closer look

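Of the genes called on opposite sides of the control in the RAS groups, 10 were named. Each was flagged because edgeR's direct test between the wild type knock-in and the senescent control passed the threshold. Their opposite calls made that all but certain, so it is no added support. All differences are wild type knock-in minus senescent control on the log2 scale. EVI2A, a membrane protein gene, differed by 4.50, at 5.62 and 7.54 CPM in the wild type knock-in, 0.287 and 0.286 CPM in the senescent control and 1.06 and 1.46 CPM in the control. LONRF2 differed by 4.62, BACH2 by 3.25 and the interferon-stimulated IFI35 by 2.27. CRACD, a regulator of actin capping, differed by 1.99. TRPA1 differed by -3.02. PSD4, an exchange factor for ARF6, differed by -2.04 and the membrane progestin receptor gene PAQR5 by -2.19. KATNAL1 differed by -1.77, and its control samples stood at 86.97 and 147 CPM. GLCE, an epimerase of heparan sulfate, differed by -1.60, with control samples at 54.03 and 77.9 CPM.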

How the results depend on the processing

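Without 1 replicate at a time, genes higher against the control numbered 4110 to 5569 and lower 3920 to 5253. Against the senescent control they numbered 2207 to 2557 higher and 2099 to 2808 lower, and in the senescent control against the control 2436 to 4425 higher and 2658 to 4596 lower. Genes past both controls numbered 1624 to 2765 above and 1335 to 2850 below, and genes called in opposite directions 87 to 204 and 64 to 253. DESeq2 gave 114 genes higher here and lower in the senescent control (176 by edgeR), and no filter gave 236 of the reverse kind (157). No called gene reversed in any alternative run. Fitting only the 4 samples kept 7729 of the 10047 calls, DESeq2 kept 8691 and a minimum count of 50 kept 8130. Upper-quartile scaling moved the median of all genes by 0.07 and the higher share of calls to 56.3%, against 51.6%. Without the other samples, m6A writers called higher numbered 2 of 7. The cause of these differences was not tested beyond the smaller number of samples or genes in some fits.

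Same-numbered wild type knock-in and control samples deviated with a correlation of -0.16, and other pairs of groups with -0.09 to 0.10. These values gave no sign of pairing by number, but they cannot exclude a shared culture or batch. The replicate block called 5169 genes higher and 4809 lower, keeping 9863 of the 10047 calls. With control numbers crossed, a pairing added after seeing the data, 5190 genes were higher and 4823 lower. Depth limits genes near 0 counts in the control, whose fitted fold changes depend on the prior count.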

Other observations

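RNA classes outside protein-coding genes were called higher more often than lower. Of 780 lincRNAs tested, 353 were higher (45.3%) and 77 lower (9.87%) in the wild type knock-in than in the control, with a median log2 fold change of 0.91, beside 28.3% and 33.4% of 13394 protein-coding genes. Of 125 snoRNA genes, which guide RNA modification, 59 were higher (47.2%) and 0 lower, with a median of 1.12. Processed pseudogenes were higher in 117 of 291 cases and lower in 19, and sense intronic transcripts in 56 of 158 and 7. The wild type knock-in libraries had 24270 and 24501 genes with a count, against 21764 and 22161 in the control. LincRNAs took 3.40% and 2.62% of counts in the wild type knock-in, 2.54% and 2.34% in the senescent control and 1.29% and 1.73% in the control. Signal from introns, unspliced RNA or genomic DNA was not tested, and pseudogene counts can come from parent genes.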
